A study of Mus musculus with 11 samples.

Results

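The albumin gene cluster comprises 4 genes that share an ancestor and encode plasma transport proteins, Alb, Afp, Afm and Gc. They were picked by symbol from the 31053 genes in the files, and all 4 passed the filter on low counts. Their transcripts were followed in a Visium time course of mouse liver injury with 11 sections. Uninjured liver at 0 h gave 3 sections (replicates 2, 3 and 4), and liver injured with paracetamol (acetaminophen, APAP) gave 2 sections after 24 h and 2 after 36 h (lettered A and B) and 4 after 48 h (A, B, C and D). The labels name no strain, sex or age. Per the study's methods the animals were young adults, male unless stated otherwise, of the strain C57BL/6JCrl or fluorescent reporter lines (which of these gave the sections is not said), and APAP was injected intraperitoneally after a fast. APAP overdose kills the hepatocytes around the central vein, from which the liver then regrows. According to the methods a single liver was used per time point, while the labels list several sections of each and name no mouse, slide or run. n therefore counts sections, each p covers the spread between sections only, and mouse and time point cannot be told apart.

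Hepatocytes secrete all 4 proteins. Albumin is the main protein of blood plasma, where it holds water in the vessels and carries fatty acids, bilirubin and drugs. Alpha-fetoprotein, from Afp, takes its place in the fetus, is silenced in liver after birth and returns in regenerating and malignant liver. Afamin, from Afm, carries vitamin E, and the vitamin D-binding protein, from Gc, carries vitamin D metabolites and binds actin released from dying cells.

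All 4 genes lie on mouse chromosome 5 (GRCm38, the mm10 build of the files, GENCODE annotation). Alb (chr5:90460897-90476602), Afp (chr5:90490737-90508907) and Afm (chr5:90518932-90553543) follow each other on the plus strand, have 15 exons each, and are separated by 14134 bases between Alb and Afp and 10024 bases between Afp and Afm. Gc (chr5:89417522-89457898, minus strand, 13 exons) lies 1002998 bases before the start of Alb, with 5 other protein-coding genes in between. A further gene of the family, 5830473C10Rik (Albfm1), lies next to Afm.

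The promoters are shown because neighbouring genes of the cluster moved differently in the results that follow. Each line gives the 250 bases before the RefSeq start of the gene (GRCm38.p6), 5′ to 3′ on the gene's own strand, at chr5:90460620-90460869 for Alb, chr5:90490464-90490713 for Afp, chr5:90518699-90518948 for Afm and chr5:89457899-89458148 (minus strand) for Gc. Capitals mark the letters of common promoter elements, TATAAA (the TATA box) and CCAAT (the CCAAT box), on either strand, and no match of one overlapped the other.
Alb: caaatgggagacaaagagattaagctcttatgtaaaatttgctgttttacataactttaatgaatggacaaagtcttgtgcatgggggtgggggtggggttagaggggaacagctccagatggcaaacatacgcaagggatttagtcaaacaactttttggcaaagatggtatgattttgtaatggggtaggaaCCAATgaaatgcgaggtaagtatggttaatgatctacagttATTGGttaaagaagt
Afp: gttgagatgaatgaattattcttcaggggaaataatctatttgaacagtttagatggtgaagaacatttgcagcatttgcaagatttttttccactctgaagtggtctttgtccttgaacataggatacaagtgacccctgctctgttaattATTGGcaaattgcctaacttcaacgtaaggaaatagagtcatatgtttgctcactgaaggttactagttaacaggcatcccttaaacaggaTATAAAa
Afm: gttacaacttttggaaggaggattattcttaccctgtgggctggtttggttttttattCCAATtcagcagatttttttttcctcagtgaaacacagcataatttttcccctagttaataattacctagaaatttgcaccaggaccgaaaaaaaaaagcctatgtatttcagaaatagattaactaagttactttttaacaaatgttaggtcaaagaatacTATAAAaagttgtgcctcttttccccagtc
Gc: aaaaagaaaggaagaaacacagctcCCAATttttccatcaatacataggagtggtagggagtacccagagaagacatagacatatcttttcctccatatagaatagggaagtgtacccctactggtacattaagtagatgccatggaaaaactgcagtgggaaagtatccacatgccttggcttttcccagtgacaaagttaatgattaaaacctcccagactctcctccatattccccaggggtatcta
Counting the base before the start as position -1, TATAAA ran from -7 to -2 in Afp and from -30 to -25 in Afm and was found in neither of the other windows, beside 12.4% of 32851 mouse promoters of the same length that hold it on either strand. CCAAT began at -56 in Alb, -192 in Afm and -225 in Gc, and its reverse ATTGG at -15 in Alb and -98 in Afp. All 4 windows thus held it on some strand, as did 33.8% of the promoters. For Alb, Afp and Afm the RefSeq start differs from the GENCODE start of the gene given above. The windows of Alb and Afp end before the GENCODE start (90460897 and 90490737), and that of Afm runs past it (90518932). Bases between the starts of Alb and of Afp were not searched. Positions and absences of a match therefore hold for the RefSeq start only. The letters were picked after the sequences had been read. These matches describe the letters and were not tested, and the assay did not measure the binding of any factor.

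The passing spots of a section held 31292663 to 67045372 UMIs (transcripts counted once by molecular identifier), over 1490 to 3466 spots with a median of 15168.5 to 29950 UMIs each. A Visium spot is wider than a cell and mixes the RNA of several. The library tags the 3′ end of a transcript once, so levels below do not scale with transcript length. Hepatocyte genes other than the cluster (Ttr, Trf, Hp, Hnf4a and Apoa1) together made up 41963 to 59100 of 1000000 UMIs in each section labelled liver. Levels are in CPM (counts per 1000000 UMIs), either unscaled or divided by the TMM factor of the section. Changes are given under both scalings, because they disagree on 3 of the members. TMM, the scaling used by edgeR, sets the median gene near 0 change, whereas division by the section total shifted the median of all genes by 0.37, 0.49 and 0.54 on the log2 scale at 24 h, 36 h and 48 h against 0 h. TMM factors were 0.783 to 0.811 at 0 h and 0.983 to 1.17 after injury.

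Afp rose at each time after APAP, while Alb, Afm and Gc lay below 0 h by TMM and were not called by section total. Against 0 h, Afp increased 5.38-fold at 24 h, 8.49-fold at 36 h and 19.3-fold at 48 h. It remained a rare transcript, and Alb was the most abundant gene of all 11 sections. In sums over a section, fewer hepatocytes and less transcript per hepatocyte cannot be told apart.

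For Afp, the uninjured sections 2, 3 and 4 held 49, 71 and 51 UMIs in all, or 1.08, 1.31 and 1.44 CPM (TMM-scaled, as below unless called unscaled). Sections A and B held 8.26 and 5.36 CPM at 24 h, and 9.33 and 12.3 CPM at 36 h. At 48 h sections A, B, C and D held 20.6, 26.7, 27.6 and 23.6 CPM, from 1424, 1326, 1927 and 1630 UMIs. Every injured section lay above every uninjured one, and the 4 sections at 48 h lay above all others. The log2 fold change against 0 h was 2.43 ± 0.222 (SE) at 24 h (edgeR adjusted p = 4.33e-05), 3.09 ± 0.221 at 36 h (edgeR adjusted p = 4.82e-05) and 4.27 ± 0.208 at 48 h (edgeR adjusted p = 1.93e-06). By section total it was 2.76, 3.52 and 4.80, and each was called by edgeR. As background, 41.7%, 29.2% and 44.2% of the 14821 genes tested were called in these 3 comparisons with TMM, and 51.2%, 50.6% and 64.2% by section total, so that a call on its own was common here.

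**Figure D1:**
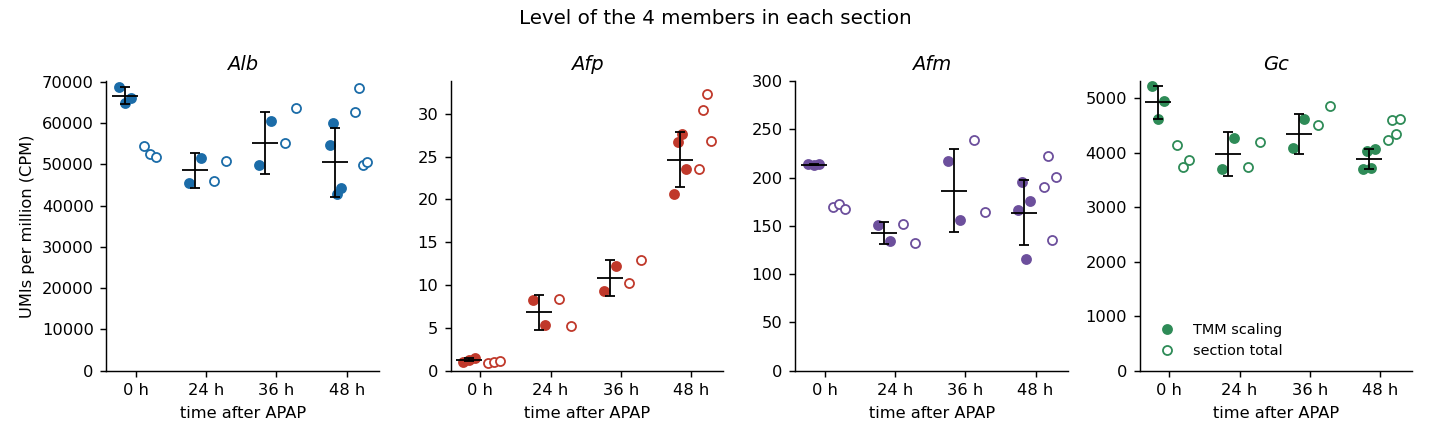
Level of each member in CPM (vertical axes, each from 0) by time after APAP. Filled points are sections scaled by TMM, open points the same sections scaled by their total, and black bars the mean ± SD of the filled points. Afp climbs from 1.28 ± 0.183 CPM at 0 h to 24.6 ± 3.19 CPM at 48 h, while the open points of Alb and Afm at 0 h lie inside the injured range and those of Gc lie below all 6 sections at 36 h and 48 h.

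Among the injured times, Afp was also higher at 48 h than at 36 h (log2 1.19 ± 0.199, edgeR adjusted p = 0.0204) and than at 24 h (log2 1.85 ± 0.207, edgeR adjusted p = 0.000364). The call of 48 h against 36 h was lost in a fit of these 2 times alone (log2 1.18, edgeR adjusted p = 0.0975) and without section 36 h A (log2 1.01, edgeR adjusted p = 0.0654), 48 h B (log2 1.15, edgeR adjusted p = 0.0558) or 48 h C (log2 1.13, edgeR adjusted p = 0.0521). Between 36 h and 24 h the difference of 0.66 ± 0.224 missed the threshold with TMM (edgeR adjusted p = 0.0697) and passed it by section total (0.76, edgeR adjusted p = 0.0479). None of Alb, Afm and Gc was called in these 3 comparisons under either scaling, and their log2 differences ranged from -0.19 to 0.39 by TMM. The shares of all genes called were 15.6% when 36 h was set against 24 h, and 3.05% and 34.1% when 48 h was set against 36 h or 24 h, with TMM. By section total they were 14.2%, 3.48% and 35.0%. Among all genes of a section, Afp ranked between 11061 and 11422 at 0 h and between 3518 and 4514 at 48 h. Afm ranked between 603 and 977 and Gc between 24 and 36 over all sections.

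Alb held 68813, 64888 and 66024 CPM in sections 2, 3 and 4 at 0 h. It held 45565 and 51575 CPM in A and B at 24 h, and 49889.6 and 60550.5 CPM at 36 h. At 48 h A, B, C and D held 54776, 59988, 42701 and 44357 CPM. With TMM all injured sections lay below all uninjured ones, and Alb fell at 24 h (log2 -0.45 ± 0.165, edgeR adjusted p = 0.0461) and at 48 h (log2 -0.40 ± 0.136, edgeR adjusted p = 0.0337). By section total the uninjured sections, at 51728 to 54471 unscaled CPM, lay inside the injured range of 46066 to 68359. The log2 change then was -0.13, 0.17 and 0.13 at 24 h, 36 h and 48 h, none called by edgeR. Relative to the median gene the change was -0.50, -0.32 and -0.41 under either scaling. This agreement follows from the measure, since a scaling shifts all genes of a section alike, and is no further evidence of a fall. The call at 24 h was lost without any of the 3 uninjured sections, 24 h A, 24 h B or 48 h A (log2 -0.55 to -0.37 over the fits that left out a section). The call at 48 h was lost without any of the 3 uninjured sections, 48 h C or 48 h D (log2 -0.49 to -0.33).

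Afm held 214, 213 and 214 CPM in sections 2, 3 and 4 at 0 h, and 150.5 and 135 CPM in A and B at 24 h. It held 217 and 156 CPM in A and B at 36 h, and 166, 195, 116 and 176 CPM in A to D at 48 h. A single injured section, 36 h A, lay above the uninjured ones, and the other 7 lay below. Only at 24 h was a decrease called with TMM (log2 -0.58 ± 0.204, edgeR adjusted p = 0.0408), and it was lost without any of the 3 uninjured sections, 24 h A, 24 h B or 48 h A (log2 -0.66 to -0.51). At 48 h Afm lay at log2 -0.38 ± 0.167 (edgeR adjusted p = 0.0842), and by section total at 0.14.

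Gc held 5224, 4619 and 4939 CPM in sections 2, 3 and 4 at 0 h, and 3693 and 4264 CPM in A and B at 24 h. It held 4091 and 4610.1 CPM in A and B at 36 h, and 3708, 4039, 3727 and 4061 CPM in A to D at 48 h. With TMM uninjured and injured sections did not overlap, though 36 h B came close to the lowest uninjured section. By section total the uninjured sections, at 3743 to 4135 unscaled CPM, lay inside the injured range of 3733 to 4847. How many of all genes separate the sections in this way was not counted, here or for Afp and Alb. Gc fell at 48 h with TMM (log2 -0.34 ± 0.0985, edgeR adjusted p = 0.0163), a call lost without the uninjured section 2 (log2 -0.30, edgeR adjusted p = 0.069). At 24 h it missed the threshold (log2 -0.31 ± 0.119, edgeR adjusted p = 0.0587). By section total the 3 values turned positive, at 0.02, 0.26 and 0.18, and none was called.

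**Figure D2:**
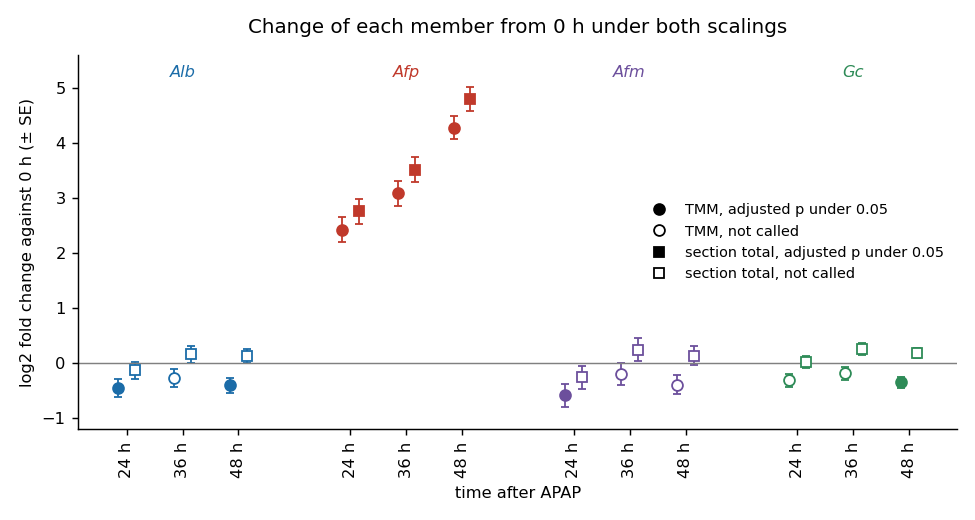
Log2 fold change of each member against 0 h (vertical axis, ± SE) at 24 h, 36 h and 48 h. Circles are TMM, squares are scaling by section total, and filled symbols passed an edgeR adjusted p of 0.05. Afp stands between 2.43 and 4.80 under both scalings, while Alb, Afm and Gc stand within -0.58 to 0.26 and mostly change sign with the scaling.

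A ratio of 2 genes within a section needs no scaling. The log2 ratio of Afp to Alb UMIs was -15.96, -15.60 and -15.48 in the 3 uninjured sections, -13.23 to -12.27 at 24 h and 36 h, and -11.38 to -10.59 at 48 h. Injured sections lay 3.89 above uninjured ones in the mean (exact two-sided permutation p = 0.0121, adjusted p = 0.0343 over 17 tests of sections). This is the smallest p that 8 against 3 sections allow. Without any 1 of the uninjured sections only 45 splits remain, whose smallest p of 0.0444 cannot pass the adjustment, so this call and the others of this kind below are lost, here with values of 3.75 to 3.99. Of the other pairs, Afm/Alb differed by -0.01 (exact permutation p = 0.958), Gc/Alb by 0.10 (exact permutation p = 0.327) and Gc/Afm by 0.11 (exact permutation p = 0.545). The SD of these ratios over the 8 injured sections was 0.277, 0.16 and 0.289, so changes in proportion of that size would not have been detected.

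To place the transcripts along the lobule, spots of each section were ranked by portal minus central gene score, with no cluster gene in either list, and the third of spots at each end were compared, called the portal and the central zone. Alb, Afm and Gc were higher in the portal zone in all 11 sections, and Afp was higher in the central zone in all 11, at 0 h on few UMIs. The gap of Alb between the zones was smaller after injury, and those of Afm and Gc were not shown to change. Marker genes of cell types shifted between the zones too. Mononuclear phagocyte genes lay at a log2 portal over central difference of 0.112 to 0.361 at 0 h and -0.706 to -0.235 later. Other hepatocyte genes lay at 0.0925 to 0.0988 at 0 h, 0.372 to 0.373 at 24 h and 0.0596 to 0.158 later. The zones after injury are thus not lobular position alone, and the part of this in the members was not tested.

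For Alb at 0 h the central zone of sections 2, 3 and 4 held 42012, 40402 and 39664 unscaled CPM and the portal zone 64526, 62345 and 60776, a log2 difference of 0.62, 0.63 and 0.62. The difference was 0.41 and 0.37 in A and B at 24 h, 0.34 and 0.19 at 36 h, and 0.40, 0.30, 0.22 and 0.20 in A to D at 48 h. No injured section reached an uninjured one, and the means of 0.30 ± 0.093 (SD, n = 8) and 0.62 ± 0.00518 (SD, n = 3) differed by -0.32 (exact permutation p = 0.0121, adjusted p = 0.0343). At 48 h the central zone held 47637 to 62429 unscaled CPM, above the uninjured central zone, and the portal zone 55233 to 76906.5. With TMM the central zone lay at 40845 to 54784 CPM at 48 h and 49848 to 53074 CPM at 0 h, which overlap, so the order of these levels depends on the scaling. The difference between zones of a section does not. The genes that ranked the spots were themselves less divided after injury. Central genes lay at a log2 portal over central difference of -1.01 to -0.902 at 0 h and -0.501 to -0.229 later, and the part of this in the Alb difference was not tested.

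For Afm the log2 difference was 0.34 to 0.38 at 0 h and 0.10 to 0.51 after injury (difference of means -0.06, exact permutation p = 0.57). For Gc it was 0.27 to 0.30 at 0 h and 0.17 to 0.34 after injury (difference of means -0.04, exact permutation p = 0.279). In both genes the 48 h sections C and D were among the lowest, at 0.10 and 0.11 for Afm and 0.17 and 0.19 for Gc.

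For Afp the central zone held 12.05 and 7.18 unscaled CPM in A and B at 24 h, against 3.95 and 2.50 in the portal zone. At 36 h A and B held 13.4 and 14.1 in the central zone, against 6.13 and 10.4. At 48 h A to D held 30.6, 46.0, 41.3 and 38.4 in the central zone, against 14.6, 17.8, 21.9 and 14.5. The log2 portal over central difference was -1.61 to -1.52 at 24 h, -1.13 and -0.44 at 36 h, and -1.41 to -0.92 at 48 h. At 0 h it was -0.38, -0.49 and -1.30 in sections 2, 3 and 4, from only 12 to 34 UMIs in a zone, so injured and uninjured sections were not compared by a test. Afp thus ran against the direction of Alb in each injured section. The same direction at 0 h rests on few UMIs, for example 19 against 15 in section 2, and does not establish a gradient.

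**Figure D3:**
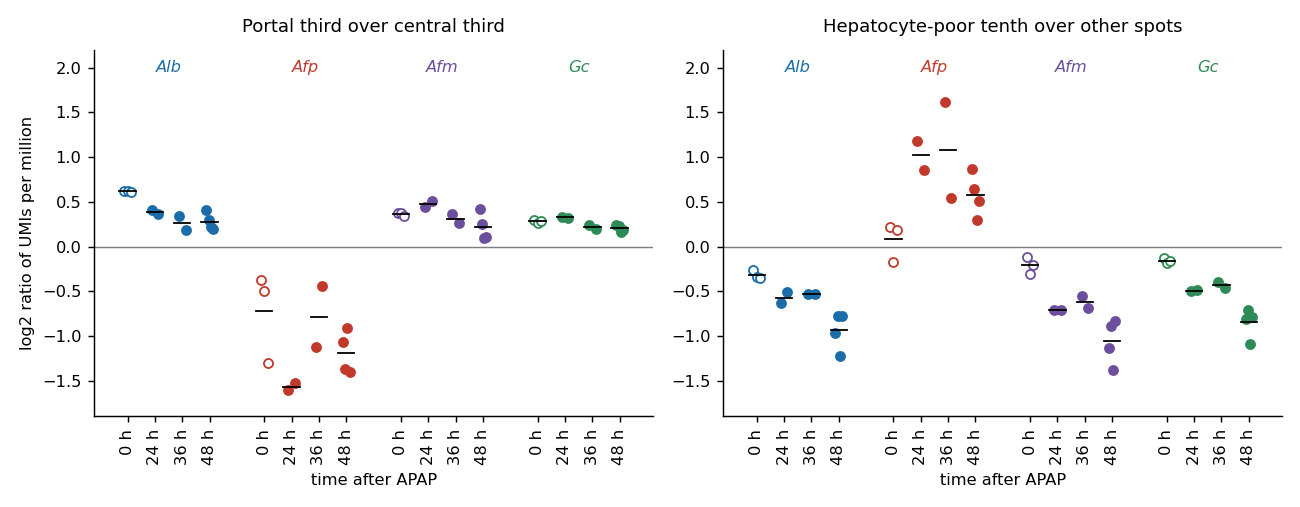
Log2 ratio of unscaled CPM between parts of a section (vertical axes), for the portal zone over the central zone (left) and the 10% of spots poorest in hepatocyte transcripts over the other spots (right). Each point is a section, open at 0 h and filled after injury, and black lines are means. On the right Alb, Afm and Gc drop from means of -0.32, -0.21 and -0.16 at 0 h to -0.94, -1.06 and -0.85 at 48 h, while all 8 injured Afp points lie above 0.

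In the 10% of spots with the lowest score for other hepatocyte genes, the poor spots, Alb, Afm and Gc were depleted after injury by more than at 0 h, whereas Afp was enriched there. The log2 ratio of the poor over the other spots was -0.35 to -0.26 for Alb at 0 h and -1.23 to -0.51 after injury. It was -0.31 to -0.11 and -1.38 to -0.55 for Afm, and -0.18 to -0.13 and -1.09 to -0.39 for Gc. Uninjured and injured sections did not overlap for any of the 3 genes. The differences of the means were -0.43 for Alb, -0.66 for Afm and -0.50 for Gc (each exact permutation p = 0.0121, adjusted p = 0.0343). The poor spots were themselves poorer after injury. The hepatocyte genes that chose them lay there at a log2 ratio of -0.192 to -0.128 at 0 h and -0.925 to -0.408 later. Their other genes differed too. Central genes lay there at 0.278 to 0.306 at 0 h and -0.927 to 0.0214 later, and mononuclear phagocyte genes at -0.127 to -0.0607 and 0.962 to 2.21. The poor spots before and after injury are thus not the same kind of spot, and the part of this was not tested.

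Afp in the same poor spots lay at a log2 ratio of 1.19 and 0.85 in A and B at 24 h, 1.62 and 0.54 at 36 h, and 0.87, 0.64, 0.29 and 0.51 in A to D at 48 h. At 36 h A, for example, the poor spots held 26.0 unscaled CPM of Afp against 8.43 elsewhere, while Alb held 39484.5 against 56869. All 8 injured sections had more Afp and less Alb there. At 0 h the ratio was -0.17 to 0.22, from 4 or 5 UMIs a section, and was not tested. Genes of other cells were also higher in the poor spots of all 8 injured sections. Mononuclear phagocyte genes (4 of 4 measured) were higher by log2 0.962 to 2.21, mesenchyme genes (7 of 7) by 0.729 to 2.08 and endothelial genes (7 of 7) by 0.506 to 1.15. Their part in the Afp ratio was not tested.

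Spots were thinned to 2000 UMIs to compare sections of different depth. An Afp UMI was then present in 0.258%, 0.26% and 0.387% of spots in sections 2, 3 and 4 at 0 h. It was present in 1.55% and 1.09% in A and B at 24 h, 1.83% and 3.10% at 36 h, and 4.59%, 4.90%, 5.14% and 5.50% in A to D at 48 h. All injured sections lay above all uninjured ones, with means of 3.46 ± 1.79% (SD, n = 8) and 0.302 ± 0.0736% (SD, n = 3; exact permutation p = 0.0121, adjusted p = 0.0343). Without thinning the shares ran from 2.06% to 2.64% at 0 h and from 28.9% to 45.9% at 48 h.

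Barcodes outside the tissue held Afp UMIs too. After thinning, 0.0689%, 0.122% and 0.366% of them held an Afp UMI in sections 2, 3 and 4 at 0 h. In A and B the share was 2.11% and 1.39% at 24 h, and 1.54% and 0.883% at 36 h. In A to D at 48 h it was 4.35%, 5.08%, 8.32% and 4.89%. The share off the tissue was below that on it in all sections at 0 h and 36 h and in A and D at 48 h, and above it in both at 24 h and in B and C at 48 h. The composition of off-tissue RNA followed its section for every member, at 1.02 to 1.16 times the on-tissue share of UMIs for Alb, 0.885 to 1.02 for Gc, 0.791 to 1.08 for Afm and 0.672 to 1.28 for Afp. Where the share off the tissue is about as high as on it, as at 24 h and 48 h, a single Afp UMI does not place its transcript in that spot, and the shares are read here as the amount of Afp in a section.

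**Figure D4:**
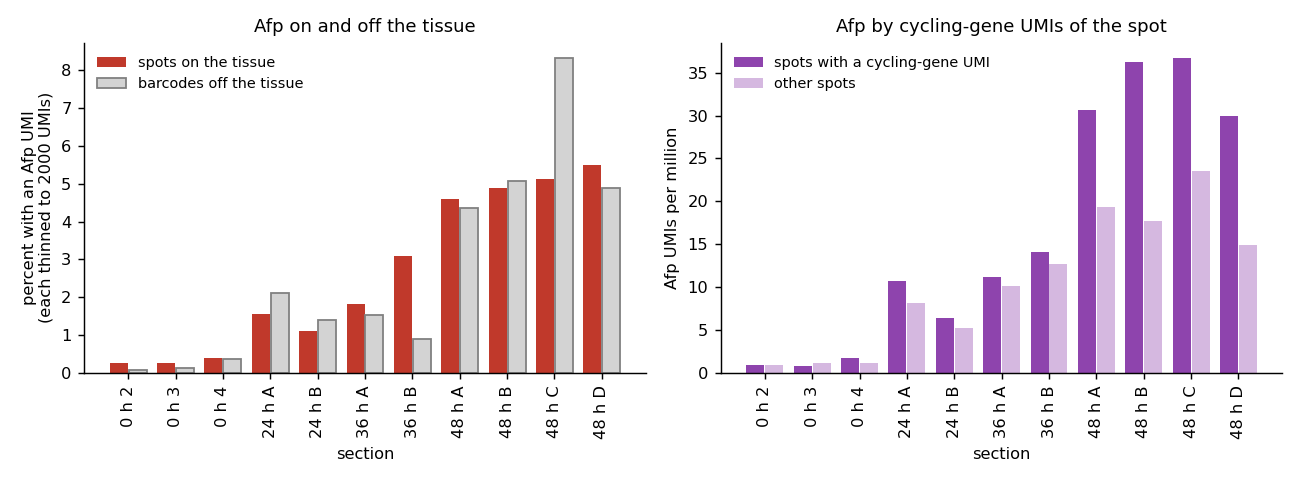
Left, percent of spots on the tissue (red) and of barcodes off the tissue (grey) with an Afp UMI after thinning each to 2000 UMIs, by section. Right, unscaled CPM of Afp in spots with a UMI of Mki67, Top2a or Ccnb2 (dark) and in the other spots (light). Grey bars are highest at 48 h, reaching 8.32% in C, and lower at 36 h than the red ones, and the dark bars exceed the light ones in all 8 injured sections.

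At 48 h some spots held several Afp UMIs. How many barcodes off the tissue did so, and how many such spots would touch by chance, was not counted. Spots with at least 5 Afp UMIs, unthinned, numbered 19, 53, 37 and 52 in A to D, and held 7.44%, 26.7%, 12.5% and 20.7% of the section's Afp UMIs, with up to 17 in a spot. None of the 19 in A touched another, and 15, 18 and 11 did in B, C and D. Their Alb was lower than in other spots in all 4 sections, at 48560, 53555, 39680 and 45181 unscaled CPM against 62632, 69006, 49989.5 and 50575. Their cycling genes (Mki67, Top2a and Ccnb2, which mark dividing cells) were higher in all 4, at 67.0, 102, 128 and 147 unscaled CPM against 30.2, 57.1, 67.5 and 89.8. Mesenchyme, phagocyte and cholangiocyte genes were higher there too, in all 4 sections. The other hepatocyte genes lay at 43549, 46501 and 45975 unscaled CPM in A to C, against 46167, 49421 and 49213 elsewhere. In D they were higher, at 53084.5 against 52294. The cholangiocyte list holds Epcam, Cdh1, Krt8 and Krt19. Its log2 portal over central difference was 0.226 to 0.276 at 0 h and -1.02 to -0.428 after injury. The list is not read here as bile duct cells. These spots were chosen by their Afp, were deeper (a median of 21841 to 34554 UMIs against 17518 to 27988.5 over all spots), and their values are descriptive.

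Read the other way, spots with a cycling-gene UMI held more Afp than other spots in all 8 injured sections. At 48 h they held 30.7, 36.2, 36.7 and 29.9 unscaled CPM of Afp in A to D, against 19.3, 17.7, 23.5 and 14.9 in the rest. At 24 h and 36 h the gap was smaller, at 6.36 to 14.1 against 5.23 to 12.7. It rests there on few Afp UMIs in cycling spots, 31 and 7 in A and B at 24 h and 62 and 71 at 36 h. At 0 h 3 or 4 Afp UMIs fell in such spots. They gave 0.955, 0.809 and 1.69 unscaled CPM in sections 2, 3 and 4, against 0.848, 1.08 and 1.10 in the rest. The gaps were not tested. A spot with more UMIs is more likely to hold one of these rare transcripts, which was not corrected for in this division.

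Across single spots, Alb and Gc varied together. Their Pearson correlation over the thinned spots of a section was 0.217 to 0.274 at 0 h and 0.3003 to 0.592 after injury. With the central score Alb correlated at -0.747 to -0.687 at 0 h and at -0.247 to 0.546 after injury. With the score for other hepatocyte genes it correlated at 0.291 to 0.379 at 0 h and at 0.505 to 0.819 after injury. Afm and Afp were too sparse for a correlation across spots to be informative, with values of -0.132 to 0.152 against Alb and all scores. All these points share a library per section and a fixed number of UMIs per spot, which links abundant genes to each other.

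The variance of thinned UMIs over their mean, which is 1 for counting error alone, was 0.992 to 1.07 for Afm in all sections. For Gc it was 1.10 to 1.18 at 0 h and 1.12 to 1.57 after injury (difference 0.176, exact permutation p = 0.0364, adjusted p = 0.0883). For Alb it was 5.40 to 5.88 at 0 h and 4.64 to 9.48 after injury (difference 0.825, exact permutation p = 0.679), and at 48 h it was 9.09 to 9.48 in A, B and C and 5.001 in D. Moran I over touching spots, a measure of how alike neighbours are, was 0.479 to 0.523 for Alb at 0 h and 0.394 to 0.501 after injury (exact permutation p = 0.097), and 0.0505 to 0.0821 and 0.0663 to 0.196 for Gc (exact permutation p = 0.0848). None of these differences was called at 2000 UMIs per spot. With spots thinned to 5000 UMIs instead, the differences of Gc in variance over mean (0.517, adjusted p = 0.0258, exact permutation) and of Alb and Gc in Moran I (-0.0725 and 0.0785, each adjusted p = 0.0375, exact permutation) were called. So were those of Afm in both measures, 0.0666 in variance over mean (adjusted p = 0.0375, exact permutation) and 0.0252 in Moran I (adjusted p = 0.0258, exact permutation), although the former was -0.0019 at 2000 UMIs.

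Among the factors known to act on the cluster (15 genes tested), none was called higher and 5 lower at 48 h with TMM, and 4 higher and none lower by section total, a list whose direction thus depends on the scaling. The background at 48 h was 23.3% of all genes called higher and 20.9% lower with TMM, and 60.2% and 4.04% by section total, and holds for the counts at 48 h of the lists that follow. At 36 h, outside the rule for named genes and chosen after its values were seen, Dbp was the largest called change of the list. It encodes a clock-controlled factor that binds the D site of the Alb promoter and averaged 5.31 ± 2.36 CPM at 0 h and 46.1 ± 24.4 CPM at 36 h (log2 3.11 ± 0.391, edgeR adjusted p = 0.0008), with 3.56 by section total, also called. At 24 h and 48 h Dbp averaged 3.54 and 8.94 CPM and was not called with TMM. By section total it was called at 48 h (log2 1.27). The labels give no time of day, so at 36 h clock time and time after APAP cannot be told apart. At 48 h with TMM the largest called changes were those of Cebpa (log2 -0.77 ± 0.195, edgeR adjusted p = 0.00907) and Foxa3 (log2 -0.75 ± 0.21, edgeR adjusted p = 0.0147), both activators of hepatocyte genes, followed by Nfia (log2 -0.58) and Nfib (log2 -0.53), nuclear factor I proteins that bind the Alb and Afp promoters. By section total these were -0.24, -0.22, -0.05 and 0.00, none called.

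Zbtb20 and Zhx2 encode the known repressors of Afp in liver after birth. Zbtb20 averaged 24.1 ± 3.63 CPM in uninjured liver and, at 24 h, 36 h and 48 h, 13.2 ± 1.66, 27.5 ± 0.539 and 17.2 ± 0.925 CPM. It fell at 24 h with TMM (log2 -0.87 ± 0.135, edgeR adjusted p = 0.00065) and by section total (log2 -0.55, edgeR adjusted p = 0.00951), was not called at 36 h with TMM (log2 0.19) but higher by section total (log2 0.62, edgeR adjusted p = 0.00442), and fell at 48 h with TMM (log2 -0.49 ± 0.109, edgeR adjusted p = 0.00425) but not by section total (log2 0.03). Zhx2 was low, with 4.62 ± 0.141 CPM at 0 h and 4.30, 3.86 and 3.59 CPM later, and was not called at any time (log2 -0.37 ± 0.174 at 48 h, edgeR adjusted p = 0.111).

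**Figure D5:**
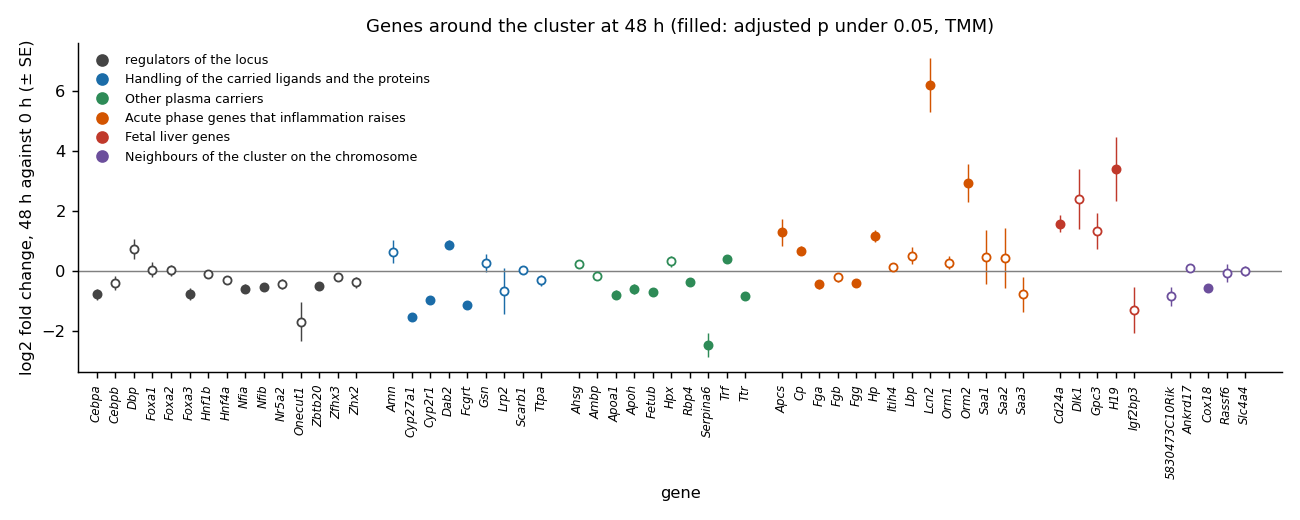
Log2 fold change at 48 h against 0 h with TMM (vertical axis, ± SE) for the tested genes of each list, coloured by list. Filled points passed an edgeR adjusted p of 0.05. All 5 filled regulators (left) lie below 0, and the highest points include Lcn2 at 6.22 and Orm2 at 2.94. The point of H19 rests on 3 UMIs at 0 h.

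Genes that handle the carried ligands or the proteins were tested for 9 of 10 listed, and 1 rose and 3 fell at 48 h with TMM. By section total 4 rose and 3 fell. Cyp27a1 and Cyp2r1, which hydroxylate vitamin D carried by the Gc protein, fell (log2 -1.51 ± 0.117, edgeR adjusted p = 1.89e-05, and log2 -0.96 ± 0.122, edgeR adjusted p = 0.000192). Fcgrt, the receptor that returns albumin to the circulation, averaged 157 ± 6.85 CPM at 0 h and 72.2 ± 12.7 CPM at 48 h (log2 -1.12 ± 0.133, edgeR adjusted p = 0.000128). All 3 were also called lower by section total, at log2 -0.98, -0.43 and -0.59, and were already lower at 24 h with TMM. Dab2, an endocytic adaptor for the receptors megalin and cubilin, rose by log2 0.89 ± 0.162 (edgeR adjusted p = 0.0014), and by 1.42 by section total.

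Of 10 other plasma carriers, 6 fell and 1 rose at 48 h with TMM, and 2 fell and 4 rose by section total. Serpina6, corticosteroid-binding globulin, fell most, from 101 ± 18.4 to 18.3 ± 3.73 CPM (log2 -2.46 ± 0.4, edgeR adjusted p = 0.000971). Ttr, which carries thyroxine and retinol-binding protein, fell from 23992 ± 1375 to 13623 ± 1237 CPM (log2 -0.82 ± 0.0991), and both were called lower by section total as well. Apoa1 and Fetub lay at log2 -0.78 and -0.69 with TMM (edgeR adjusted p = 0.00157 and 0.000897) and at -0.25 and -0.16 by section total, where neither was called. The median of the list was -0.47 with TMM and 0.06 by section total, beside 0.01 and 0.54 for all genes.

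Acute phase genes, which hepatocytes raise in inflammation while albumin output declines, were called most often at 24 h. Of 14 tested, 13 rose and none fell at 24 h, beside 23.1% and 18.6% of all genes, and 5 rose and 2 fell at 48 h (8 and 0 by section total). Lcn2, an iron-siderophore binding protein also made by neutrophils, averaged 4.93 ± 2.63 CPM at 0 h, 1099 ± 675 CPM at 24 h and 366 ± 256 CPM at 48 h (log2 6.22 ± 0.902, edgeR adjusted p = 0.000543). Hp, haptoglobin, rose from 2788 to 18117 CPM at 24 h and stood at 6294 ± 1057 CPM at 48 h (log2 1.17 ± 0.208, edgeR adjusted p = 0.00121). Orm2 and Apcs, further plasma proteins of this response, rose by log2 2.94 ± 0.629 and 1.30 ± 0.447 at 48 h (edgeR adjusted p = 0.00442 and 0.0375). The means of Lcn2 and Hp were highest at 24 h, that of Afp at 48 h.

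Of 8 genes of fetal liver, 5 were tested, and 2 rose at 48 h. Cd24a, a surface glycoprotein also made by biliary and immune cells, rose from 2.19 ± 0.622 to 6.63 ± 2.13 CPM (log2 1.59 ± 0.275, edgeR adjusted p = 0.00106) and was also among the genes called at 24 h and 36 h. H19, an imprinted transcript of fetal liver, was called at 48 h (edgeR adjusted p = 0.0231) on 3 UMIs in the 3 uninjured sections together and 5 to 34 UMIs in each 48 h section, too few for a fold to be given. Dlk1 and Gpc3 had 3 and 30 UMIs in all over the 3 sections at 0 h and 33 and 153 over the 4 at 48 h, and were called only by section total. Igf2bp3 went the other way and was not called (log2 -1.29 ± 0.761 with TMM and -0.77 by section total), with 27 UMIs in all at 0 h and 21 at 48 h. Igf2, Lin28b and Igf2bp1 did not pass the filter.

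Of 7 neighbours on the chromosome, 5 were tested. At 48 h 1 fell and none rose with TMM, and none fell and 2 rose by section total. The 1 that fell was Cox18, needed for assembly of cytochrome c oxidase, at log2 -0.55 ± 0.132 (edgeR adjusted p = 0.00685), and at -0.02 by section total. 5830473C10Rik, the further family gene beside Afm, averaged 44.3 ± 3.92 CPM in uninjured liver and, at 24 h, 36 h and 48 h, 42.0 ± 22.2, 24.9 ± 14.6 and 24.9 ± 4.83 CPM, and was not called (log2 -0.83 ± 0.317 at 48 h, edgeR adjusted p = 0.0554). Afp was called higher than at 0 h at each time, whereas this gene and the genes on both sides of Afp, Alb and Afm, were called higher at none under either scaling. Another neighbour did rise. Ankrd17, between Gc and Alb, was called higher at 24 h with TMM (log2 0.33, edgeR adjusted p = 0.049). By section total it was called higher at 24 h, 36 h and 48 h (log2 0.65, 0.63 and 0.64), and Slc4a4 at 48 h (log2 0.55).

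The genes whose levels over the 11 sections were most like those of Afp, by Pearson correlation of log2(CPM + 1) over 14821 genes, were Gins2 (0.993), Mcm6 (0.993) and Mcm2 (0.992), which encode parts of the helicase that opens DNA for replication. Alb itself stood at -0.675 with Afp, Afm at -0.526 and Gc at -0.80, all with TMM. By section total the sign turned, to 0.32, 0.23 and 0.66, while Gins2, Mcm6 and Mcm2 stayed the 3 closest to Afp. For Alb the closest were Ankrd13c (0.972), Ublcp1 (0.944) and Ythdf3 (0.937). For Afm they were Gm20300 (0.934), Thrb (0.923), a thyroid hormone receptor, and A830010M20Rik (0.92). For Gc they were Cdkal1 (0.958), Ndufa1 (0.94) and Car5b (0.933), of which the last lay at 0.23 by section total. The sections fall into few time points, so any gene that follows them correlates highly, and no test was made. Across the 6955 thinned spots at 0 h, the closest to Alb were Mup20 (0.575), Mup3 (0.497) and Cyp2f2 (0.427), of which Mup20 and Cyp2f2 are in the portal list. In the same spots the gene closest to Gc (0.254) and to Afm (0.077) was Alb.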

How the data were processed

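Spatial 3′ gene expression was measured on 11 sections. Per the file headers and the submitters' processing notes, the authors ran Space Ranger 1.0.0 on mm10, and they deposited raw UMI counts, not normalised, in which each section had 31053 genes and the same 4992 barcodes, on and off the tissue. Seurat 4.1.1 is also named in the notes.

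As in the study's methods, a spot under the authors' tissue mask entered if it had 800 genes or more and no more than 20% mitochondrial UMIs. Counts were summed per section, since spots are not replicates. Sums were tested with edgeR 4.0.16 in R 4.3.3 (filterByExpr, TMM, quasi-likelihood fit of all 11 sections, two-sided, Benjamini-Hochberg over 14821 genes). A gene was called at an adjusted p under 0.05. SEs are the log2 fold change over the square root of the F statistic. Section values of 8 injured and 3 uninjured sections were compared by exact permutation over 165 splits, adjusted over 17 tests. For spot measures each spot was thinned to 2000 UMIs. No 2 sections agreed within sampling noise. The fits were tested on simulated data.

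Sums of 31292663 UMIs or more leave little counting error in Alb, Gc and Afm, and 49 to 71 Afp UMIs at 0 h set the precision of Afp. Alternatives were another scaling (section total, DESeq2 1.42.0 size factors), no filter, the DESeq2 Wald test, other spots, thinning or zones, and each section left out. Named genes were the members, the 4 largest called changes of each list at 48 h, Zhx2, Zbtb20 and 5830473C10Rik, and the 3 closest patterns per member. Others, such as Dbp, Ankrd17 and Igf2bp3, were named after their values were seen. Members and lists were chosen with earlier results of these data known, and a listed regulator is not reported here. Promoters came from RefSeq (all 4 members matched). Images were not used here.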

Additional observations from a re-analysis of the deposited data

Results flagged for a closer look

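The rise of Afp over 0 h differed between injured times, by a test of the difference itself. It was larger at 48 h than at 36 h by 1.19 on the log2 scale (edgeR adjusted p = 0.0204) and than at 24 h by 1.85 (edgeR adjusted p = 0.000364), with all 4 sections at 48 h above all 4 of the earlier injured sections.

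Section 48 h D lay apart from the other 3 sections of its time in the spot-to-spot spread of Alb. Its variance over mean was 5.001 against 9.09 to 9.48, a gap of 0.914 of the range, which is above Dixon's critical value for 4 sections. It was the only mark among 24 measures looked at in this way, of which chance marks about 1 in 20.

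Barcodes off the tissue entered none of the comparisons between time points, and Afp UMIs were found there above the level of uninjured sections. After thinning, the lowest injured section had 0.883% of such barcodes with an Afp UMI and the highest 8.32%, against at most 0.366% at 0 h.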

How the results depend on the processing

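Of 202 values recomputed under other settings, 177 kept their direction and their side of the threshold, and Afp against 0 h was called higher in all 54 fits, at 2.08 to 2.76 (24 h), 2.87 to 3.52 (36 h) and 4.16 to 4.80 (48 h). Scaling by section total gave Alb -0.13, 0.17 and 0.13, Afm -0.25, 0.25 and 0.14 and Gc 0.0168, 0.26 and 0.18 at 24 h, 36 h and 48 h against 0 h, Gc 0.17 for 48 h against 24 h, and Afp 0.76 for 36 h against 24 h (edgeR adjusted p = 0.0479). Gc at 24 h passed the threshold with DESeq2 size factors (-0.32), the DESeq2 Wald test (-0.32) and the 2 times alone (-0.34). Without the filter on low genes Gc for 48 h against 24 h was 0.0055. Afp for 48 h against 36 h was no longer called in the 2 times alone (1.18), nor among the 8 injured sections without a replicate block (1.20). Letters A to D are not stated to pair sections, and deviations of same-letter sections correlated at -0.227 to 0.27. With the letter as a replicate block Afp for 48 h against 36 h was 1.13 (edgeR adjusted p = 0.407) and Alb 0.0582, and the block changed no other call. Thinning to 5000 UMIs brought the spread of Gc (0.517) and Afm (0.0666) and Moran I of Alb (-0.0725), Afm (0.0252) and Gc (0.0785) past the threshold, and the cause was not tested. With all spots under the mask the spread of Afm was 0.00145.

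With a section left out, a lone section was taken to vary like the other groups. Log2 fold changes then ranged from -0.55 to -0.37 (Alb, 24 h), -0.49 to -0.33 (Alb, 48 h), -0.66 to -0.51 (Afm, 24 h), -0.46 to 0.0217 (Afm, 36 h), -0.48 to -0.25 (Afm, 48 h), -0.42 to -0.21 (Gc, 24 h) and -0.39 to -0.30 (Gc, 48 h) against 0 h. They ranged from 0.39 to 1.01 (Afp) for 36 h against 24 h. For 48 h against 36 h they were 1.01 to 1.39 (Afp), -0.41 to 0.0691 (Afm) and -0.26 to 0.00869 (Alb), and for 48 h against 24 h -0.0394 to 0.15 (Alb) and -0.14 to 0.0739 (Gc). Differences between injured and uninjured sections ranged from 3.72 to 4.10 (Afp/Alb), -0.0794 to 0.0283 (Afm/Alb), 2.87 to 3.50 percentage points (spots with Afp), -0.33 to -0.30 (Alb between zones) and -0.00880 to 0.00706 (spread of Afm). In the poor spots they ranged from -0.46 to -0.36 (Alb), -0.71 to -0.58 (Afm) and -0.54 to -0.44 (Gc).

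Afp at 0 h rests on 49 to 71 UMIs per section, which limits its zonal and single-spot values.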

Other observations

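With Afp, its neighbours Alb and Afm correlated at -0.675 and -0.526 over the 11 sections with TMM and at 0.32 and 0.23 by section total, while the distant Gc correlated with Alb at 0.819 and 0.587. At 48 h the genes whose thinned UMIs followed Alb most closely over 9994 spots were Apoa2 (0.63), Ttr (0.626) and Serpina3k (0.594), all secreted hepatocyte products, and those that ran most strongly against it were Fth1 (-0.679), Ftl1 (-0.678) and Tmsb4x (-0.65). The first 2 of these encode ferritin chains, and Lyz2 of phagocytes followed at -0.609. These genes were listed after the values were seen, and points of a section share a library and a fixed number of UMIs, so no test was made.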
